A study of Mus musculus with 2 samples.

Results

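The transcripts of 10 genes that handle iron and heme were read in adherent liver cells from 2 groups of fibrotic mice. The genes were taken as a named set: the macrophage recycling genes Hmox1, Slc40a1 and Slc11a1, the ferritin genes Fth1 and Ftl1, the transferrin genes Trf, Tfrc and Hfe, and the secreted regulators Hamp and Cp. All 10 had an entry in both libraries, out of 38320 gene entries in each, and all 10 passed a minimum mean level of 1 FPKM (fragments scaled to transcript length and to mapped fragments), as did 12670 genes in total. The controls were adult male Foxf1 fl/fl mice on a C57/Bl6 background. The other group, labelled αSMACreER;Foxf1 fl/fl (knockout) and written αSMACreER;Foxf1-/- here, carried in addition a tamoxifen-inducible Cre driven by the smooth muscle actin promoter, and tamoxifen was injected during the injury so that Foxf1 would be deleted in cells that express αSMA. Mice of both genotypes received carbon tetrachloride (CCl4), a hepatotoxin, for 5 weeks. The study describes liver staining of both genotypes after CCl4 and tamoxifen. It does not state outright whether the sequenced controls received tamoxifen. Liver cells were plated for 2 h, the adherent cells were kept, and samples were pooled into 1 library per genotype, the number of mice being not given in the sources used here. The differences below rest on 1 library against 1 and have no replicate check, so p-values are not given. Foxf1 itself was not analysed here, so the genotype labels, which set the direction of every difference, were not checked against the targeted gene. By qRT-PCR, the study did not detect Foxf1 mRNA in the αSMACreER;Foxf1-/- stromal cells that it sent for sequencing.

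Iron in the body is mostly recycled. Liver macrophages (Kupffer cells) take up aged red cells, open the heme ring with heme oxygenase 1, and either store the iron in ferritin, a hollow shell built of heavy and light subunits, or export it through ferroportin. Hepatocytes make transferrin, which carries iron in the blood, and hepcidin, the hormone that removes ferroportin from the cell surface. Cells take transferrin up through the transferrin receptor, and iron regulatory proteins tune these genes after transcription by binding iron-responsive elements, short stem-loops in the untranslated regions (UTRs) of the mRNAs. Bound in the 5′ UTR they hold back translation, and bound in the 3′ UTR of the transferrin receptor mRNA they protect it from decay.

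The stem-loops are shown because they divide the set by how each mRNA is read. GENCODE M21 transcripts (GRCm38) were searched on the transcript strand for a C, then 5 bases, the loop CAGTGN, and 5 bases that pair with the first 5, G with T allowed. Of 21901 protein-coding genes, 0.731% held such a stem-loop in an annotated UTR (0.142% in the 5′ UTR and 0.589% in the 3′ UTR). Of the 10 genes, 4 did, and the loop is in capitals below. The Fth1 site lay in exon 1 at chr19:9982732-9982760 (plus strand), the Ftl1 site in exon 1 at chr7:45459779-45459807 (minus strand) and the Slc40a1 site in exon 1 at chr1:45925465-45925493 (minus strand), each in the 5′ UTR. The 4 Tfrc sites all lay in the 3′ UTR in exon 19, at chr16:32631219-32631247, chr16:32631598-32631626, chr16:32631663-32631691 and chr16:32631710-32631738 (plus strand).
Fth1 5′ UTR: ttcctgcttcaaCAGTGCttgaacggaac
Ftl1 5′ UTR: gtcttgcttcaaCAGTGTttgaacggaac
Slc40a1 5′ UTR: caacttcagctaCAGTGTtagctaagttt
Tfrc 3′ UTR, site 1: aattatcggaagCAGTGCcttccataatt
Tfrc 3′ UTR, site 2: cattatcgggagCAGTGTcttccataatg
Tfrc 3′ UTR, site 3: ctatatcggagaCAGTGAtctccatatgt
Tfrc 3′ UTR, site 4: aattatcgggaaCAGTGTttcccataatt
The search asks for this loop alone, and no match in the other 6 genes says only that these letters and pairs are not in their annotated UTRs.

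Before the genes were compared, the libraries were checked for the cells they hold. Summed over 10 macrophage and Kupffer cell markers, the level was 10361 FPKM in Foxf1fl/fl and 8753 FPKM in αSMACreER;Foxf1-/- cells, against 329 FPKM and 469.7 FPKM over 10 stellate cell and myofibroblast markers. The labelled cell type was stromal, yet Des, encoding the stellate cell filament desmin, was at 1.70 FPKM and 3.29 FPKM, Acta2 at 7.77 FPKM and 5.65 FPKM, Pdgfrb at 1.03 FPKM and 1.43 FPKM, and Lrat, which esterifies vitamin A in resting stellate cells, was near 0 in both (0.0778 FPKM and 0.111 FPKM). Most of the stellate sum came from the matrix genes Col1a1 (70.2 FPKM and 102.8 FPKM), Col3a1 (114.9 FPKM and 164.4 FPKM) and Dcn (126.7 FPKM and 186.1 FPKM). The study itself reports Des and Acta2 in the purified cells and an absence of markers of hepatocytes and Kupffer cells. The hepatocyte markers summed to 3604 FPKM and 1355 FPKM, and 10 of 10 were at least 1.5-fold lower. Of 10 neutrophil markers, 8 were at least 1.5-fold lower, and they summed to 2362 FPKM and 982 FPKM. Endothelial markers summed to 965 FPKM and 927 FPKM, and 1 of 10 was at least 1.5-fold higher. In pooled tissue cells, fewer cells of a type and less RNA per cell cannot be told apart.

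Fold changes below are differences of log2(FPKM + 0.1), αSMACreER;Foxf1-/- minus Foxf1fl/fl, after the libraries were brought to the same median ratio. On this scale the change of a gene with a very low level comes out too small. Levels are FPKM as deposited. Of the 12670 genes, 12.8% were higher in αSMACreER;Foxf1-/- cells by 1.5-fold or more and 13.2% were lower by that much, 26.0% in either direction, and the median over all genes was 0.0049. Of the 10 iron and heme genes, 1 was higher by that much (Tfrc), 3 were lower (Hamp, Cp and Trf), and 6 were within 1.5-fold. At 2-fold, where 4.32% of all genes were higher and 6.21% lower, Tfrc was higher and Hamp lower. The median log2 fold change of the 10 was −0.49, and 8 of 10 were below 0. Scaled to an equal FPKM sum, a choice that moved the median of all genes to 0.21, 1 gene was higher and 1 lower, beside 22.2% and 8.73% of all genes, and the median of the set was −0.29. With the trend of fold change with transcript length removed, the median of the set was −0.27.

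**Figure D1:**
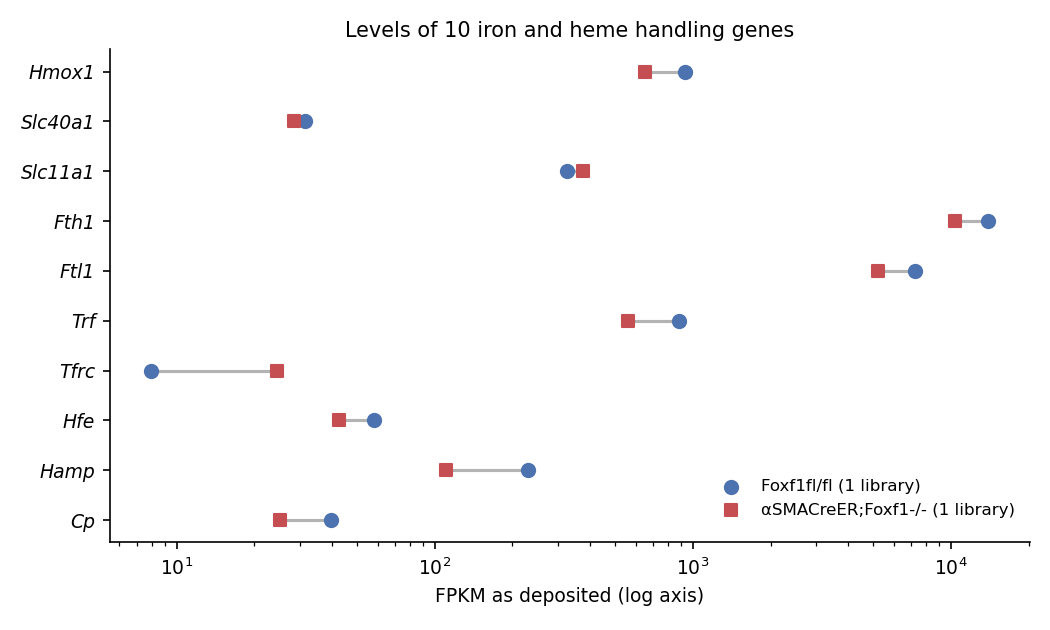
The horizontal axis gives the deposited FPKM on a log scale for each of the 10 genes, with a circle for the Foxf1fl/fl library and a square for the αSMACreER;Foxf1-/- library, 1 pooled library each. Ferritin transcripts lie far to the right of the rest, from 5225 FPKM to 13908 FPKM, and Tfrc, the gene with the lowest level in Foxf1fl/fl cells (7.99 FPKM), is the one with the longest line.

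The transferrin receptor stood apart from the rest of the set. Tfrc (ENSMUSG00000022797, chromosome 16 from 32608920 to 32632794 of GRCm38, plus strand) encodes the receptor that brings iron-loaded transferrin into cells. Its level was 7.99 FPKM in Foxf1fl/fl cells and 24.5 FPKM in αSMACreER;Foxf1-/- cells. This was a 3.02-fold higher level and a log2 fold change of 1.58, with an approximate 95% counting interval from 1.42 to 1.76. The interval comes from about 365 and 1301 reads and covers counting error only, not differences between mice. With reads placed on a transcript of median length it was wider, from 1.13 to 2.10. Among the 12670 genes, the log2 fold change of Tfrc ranked 202 from the highest. It was at least 1.5-fold higher under each of 9 alternative settings of scaling, pseudocount, level filter, repeated entries and length, with log2 fold changes from 1.38 to 1.78.

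The partners of the receptor had lower levels in αSMACreER;Foxf1-/- cells. Trf (ENSMUSG00000032554, chromosome 9 from 103204001 to 103230444, minus strand) encodes transferrin and had 881 FPKM in Foxf1fl/fl and 560.4 FPKM in αSMACreER;Foxf1-/- cells. It was 1.60-fold lower, with a log2 fold change of −0.68 (interval −0.71 to −0.65). Under an equal FPKM sum its log2 fold change was −0.48, inside 1.5-fold, and with the trend of fold change with transcript length removed it was −0.585, at the threshold of 0.585 and just inside it. Hfe (ENSMUSG00000006611, chromosome 13 from 23702034 to 23710854, minus strand), a class I-like protein that binds the receptor and takes part in iron sensing by hepatocytes, had 58.0 FPKM and 42.5 FPKM. Its log2 fold change of −0.48 (−0.57 to −0.38) was within 1.5-fold. Within a library, where the scaling between libraries plays no part, the level of Trf was 110.4 times that of Tfrc in Foxf1fl/fl cells and 22.8 times in αSMACreER;Foxf1-/- cells.

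Ferritin mRNA was among the most abundant in both libraries. Fth1 (ENSMUSG00000024661, chromosome 19 from 9980598 to 9985098, plus strand) encodes the heavy subunit, which oxidizes iron for storage, and had 13908 FPKM in Foxf1fl/fl and 10389.9 FPKM in αSMACreER;Foxf1-/- cells. It ranked 2 and 3 by level among all genes and held 1.84% and 1.56% of the summed FPKM. Ftl1 (ENSMUSG00000050708, chromosome 7 from 45457944 to 45459884, minus strand) encodes the light subunit, which helps to form the iron core, and had 7262 FPKM and 5225 FPKM, ranks 4 and 9. Both subunits were lower in αSMACreER;Foxf1-/- cells by less than 1.5-fold. The log2 fold change was −0.45 for Fth1 (counting interval −0.46 to −0.44) and −0.50 for Ftl1 (−0.52 to −0.48). The subunits kept nearly the same proportion, with 1.92 times as much Fth1 as Ftl1 in Foxf1fl/fl cells and 1.99 times in αSMACreER;Foxf1-/- cells.

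Ferritin and the receptor differed in opposite directions. Fth1 was at 1741 times the level of Tfrc in Foxf1fl/fl cells and at 423 times in αSMACreER;Foxf1-/- cells, a 4.11-fold fall in the ratio, and Ftl1 was at 909 and 213 times the level of Tfrc. Short transcripts were lower and long transcripts higher in αSMACreER;Foxf1-/- cells across all genes, and this bears on ferritin. With that length trend removed, the log2 fold change was −0.23 for Fth1 and −0.093 for Ftl1. The longest annotated Fth1 transcript, which sets its place in the trend, retains an intron. The median Fth1 transcript has 715 bases, and genes of 553 to 982 bases had a median of −0.41. The −0.23 for Fth1 thus depends on the length used, and removal of the trend at the median length was not run. Ferritin genes have many near-identical copies in the genome, among which reads can be split. Named copies and relatives in the files held few: 10 of the Fth1 kind summed to 0 FPKM and 0.579 FPKM, and 3 of the Ftl1 kind to 1.84 FPKM and 2.15 FPKM.

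**Figure D2:**
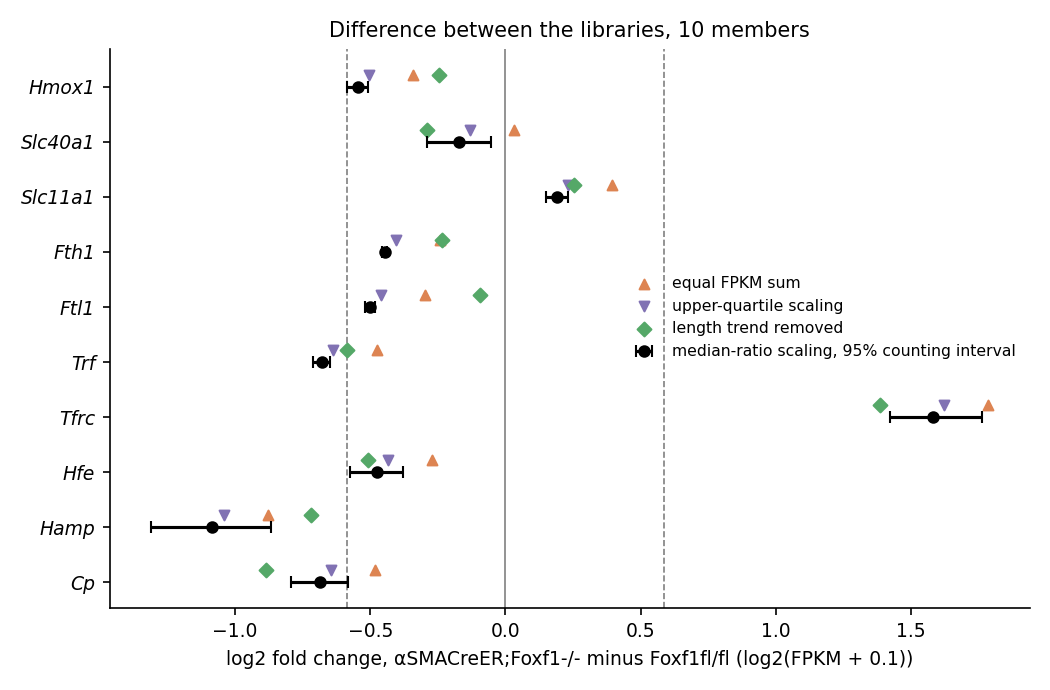
The horizontal axis gives the log2 fold change of each gene, αSMACreER;Foxf1-/- minus Foxf1fl/fl, as a black point with its approximate 95% counting interval, and coloured markers give the value under 2 other scalings and with the length trend removed. Dashed lines mark 1.5-fold: Tfrc lies beyond the right line under every choice shown, Hamp beyond the left line under every choice shown, and Slc40a1 crosses 0 under an equal FPKM sum.

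The macrophage recycling genes did not move together. Hmox1 (ENSMUSG00000005413, chromosome 8 from 75093621 to 75100589, plus strand), which encodes the inducible heme oxygenase, had 933 FPKM in Foxf1fl/fl and 650.5 FPKM in αSMACreER;Foxf1-/- cells. It was 1.46-fold lower, just inside the 1.5-fold threshold, with a log2 fold change of −0.55 (interval −0.58 to −0.51), and stayed inside 1.5-fold under each of the 9 alternative settings, with −0.24 once the length trend was removed. Slc11a1 (ENSMUSG00000026177, chromosome 1 from 74375195 to 74386062, plus strand) encodes NRAMP1, which moves iron and other metals out of phagosomes, and had 324 FPKM and 377 FPKM. Its log2 fold change of 0.19 (0.15 to 0.23) was the only one above 0 beside that of Tfrc. Slc40a1 (ENSMUSG00000025993, chromosome 1 from 45908068 to 45926523, minus strand) encodes ferroportin, the iron exporter, and had 31.5 FPKM and 28.5 FPKM. Its log2 fold change was −0.17 (−0.29 to −0.054), it turned to 0.031 under an equal FPKM sum, and with reads placed on a transcript of median length its interval ran from −0.62 to 0.27.

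Macrophage markers are given beside these genes. Of the 10 markers, 1 was at least 1.5-fold lower and 9 were within 1.5-fold, with a median log2 fold change of −0.33 and a range from −0.60 to 0.045. The lower one was Clec4f, the Kupffer cell lectin, with 1117 FPKM and 753 FPKM (−0.60, and −0.39 under an equal FPKM sum). Adgre1 (F4/80) had 162 FPKM and 165 FPKM, and Cd68 had 646 FPKM and 679 FPKM. The level of Hmox1 was 0.835 times that of Clec4f in Foxf1fl/fl cells and 0.864 times in αSMACreER;Foxf1-/- cells, whereas against Cd68 it was 1.44 and 0.958 times. The part of the macrophage share of RNA in these values was not tested.

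Hepcidin, the liver hormone, had the lowest log2 fold change of the 10 genes as measured, and Cp the lowest once the length trend was removed. Hamp (ENSMUSG00000050440, chromosome 7 from 30942368 to 30944032, minus strand) had 229.8 FPKM in Foxf1fl/fl and 110.4 FPKM in αSMACreER;Foxf1-/- cells. It was 2.12-fold lower, with a log2 fold change of −1.08 (interval −1.31 to −0.87) from about 472 and 263 reads, and was at least 1.5-fold lower under each of the 9 alternative settings, from −1.08 to −0.72. Its neighbour and close copy Hamp2, with which reads may be shared, had 5.82 FPKM and 5.38 FPKM. Cp (ENSMUSG00000003617, chromosome 3 from 19957054 to 20009145, plus strand) encodes ceruloplasmin, the copper protein that oxidizes iron as it leaves cells, and had 39.7 FPKM and 25.1 FPKM. It was 1.61-fold lower, with a log2 fold change of −0.69 and an interval from −0.79 to −0.58 that reached the 1.5-fold threshold, under an equal FPKM sum it was −0.48, and with the length trend removed it was −0.88.

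Trf, Hamp and Cp are all genes that hepatocytes express, and the hepatocyte markers were lower as well. Alb, the gene of serum albumin, had 2292 FPKM and 912 FPKM, a log2 fold change of −1.36, Ttr had −1.92 and Apoa1 −1.66, and the median of the 10 markers was −1.46 with a range from −1.92 to −0.73. Trf and Cp differed less than each of these 10 markers, and Hamp differed less than 8 of them. Set against Alb within a library, Trf was at 0.385 times its level in Foxf1fl/fl and 0.614 times in αSMACreER;Foxf1-/- cells, and Cp at 0.0173 and 0.0275 times. The ratio of Hamp to Alb was 1.21 times as high in αSMACreER;Foxf1-/- as in Foxf1fl/fl cells. The part of hepatocyte RNA in these differences was not tested.

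**Figure D3:**
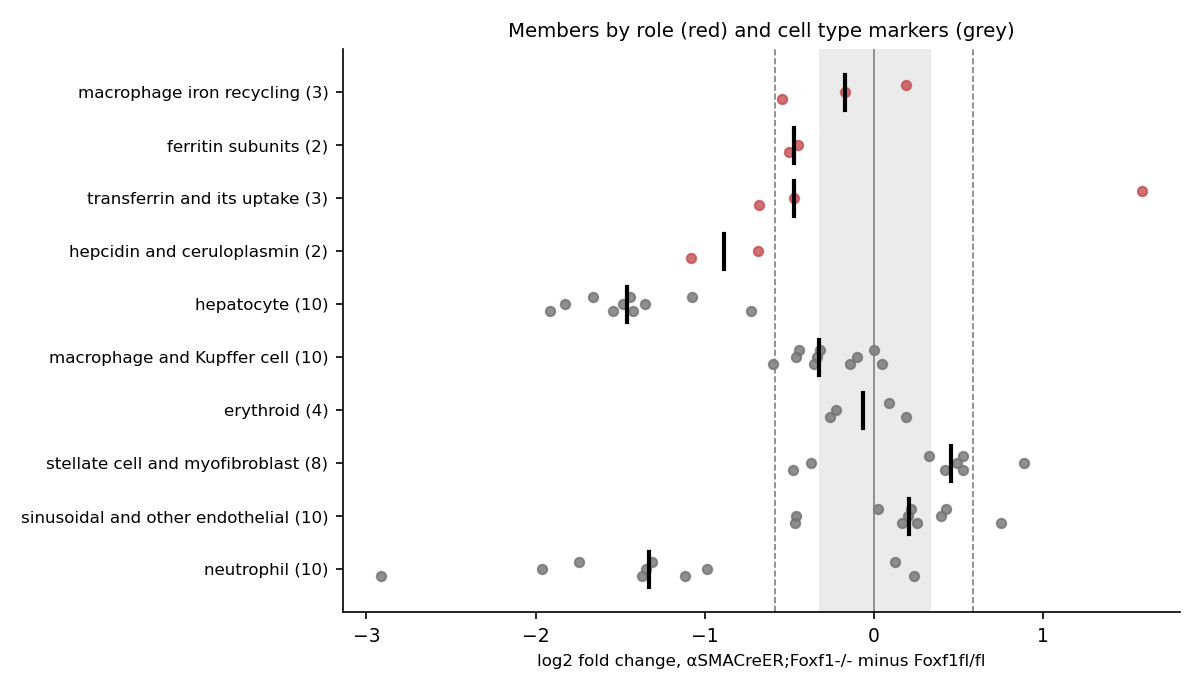
Each point is 1 gene, placed by its log2 fold change (αSMACreER;Foxf1-/- minus Foxf1fl/fl), in red for the 10 genes by role and in grey for cell type markers with a mean level of at least 1 FPKM. Black bars are medians, the grey band is the interquartile range of all 12670 genes, and dashed lines mark 1.5-fold. Hepatocyte and neutrophil markers lie mostly left of the dashed line (medians −1.46 and −1.33), macrophage markers around −0.33, and Tfrc alone lies beyond the right line among the red points.

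A wider list of 86 other genes of iron and heme biology was then read. Of these, 85 had an entry and 79 passed the minimum level. At least 1.5-fold higher were 3 of the 79 and at least 1.5-fold lower 14, with a median log2 fold change of −0.19, and the background shares of 12.8% and 13.2% apply here too. Under an equal FPKM sum 10 of the 79 were higher and 9 lower, where 22.2% of all genes were higher and 8.73% lower, and the median was 0.0092 while that of all genes was 0.21.

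Scavengers and transporters of hemoglobin and heme had the lowest median of the 9 roles, −0.63. Of 8 genes past the filter, 4 were at least 1.5-fold lower and 0 higher, beside 13.2% and 12.8% of all genes. Hpx, encoding the heme-binding protein hemopexin, had 485 FPKM and 154 FPKM, and its log2 fold change was −1.69 (−1.76 to −1.62). Hp, encoding haptoglobin, which binds free hemoglobin, had 524 FPKM and 210.1 FPKM (−1.34), and Hrg, a plasma glycoprotein that binds heme, had 18.7 FPKM and 9.82 FPKM (−0.95). All 3 are products of hepatocytes. Within a library Hp stood at 0.229 and 0.230 times the level of Alb, and Hpx at 0.212 and 0.168 times. Cd163, the macrophage receptor for the complex of haptoglobin and hemoglobin, was named after its value was seen and had 30.003 FPKM and 18.1 FPKM (−0.76).

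Of the 10 genes of iron uptake, 2 were at least 1.5-fold lower and 0 higher, beside 13.2% and 12.8% of all genes. Tfr2, the second transferrin receptor, which hepatocytes use to sense iron, had 6.69 FPKM in Foxf1fl/fl and 2.75 FPKM in αSMACreER;Foxf1-/- cells. The difference of −1.28 on the log2 scale (−1.69 to −0.94) was opposite in sign to that of Tfrc. Lcn2, encoding lipocalin 2, which binds the iron carriers of bacteria and is stored in neutrophil granules, had 190 FPKM and 88.6 FPKM (−1.13). The neutrophil markers S100a8, S100a9 and Ngp had −1.31, −1.35 and −1.37. Of all 10 neutrophil markers, 8 were at least 1.5-fold lower and 2 were above 0. The part of neutrophil RNA in the value of Lcn2 was not tested.

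The iron regulatory proteins, which bind the stem-loops shown above, were measured as well. Ireb2, encoding the regulatory protein IRP2, had 4.15 FPKM and 6.50 FPKM, a log2 fold change of 0.61 (0.38 to 0.86), just past 1.5-fold. Aco1, encoding IRP1 and named after its value was seen, had 14.0 FPKM and 11.8 FPKM (−0.28), and Fbxl5, which marks both proteins for degradation when iron is plentiful, had 21.9 FPKM and 23.3 FPKM (0.060). With the length trend removed Ireb2 was at 0.27, inside 1.5-fold. Of 4 genes of storage and ferritin turnover past the filter, all were within 1.5-fold, where 26.0% of all genes passed 1.5-fold in either direction. Their median was 0.21 and 3 were above 0, the exception being Pcbp1, which delivers iron to ferritin, at 252 FPKM and 215 FPKM (−0.26). Pcbp1 was close to no change with the length trend removed (−0.010) and under an equal FPKM sum (−0.053).

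Genes that control hepcidin were read next. Of 21 past the filter, 1 was at least 1.5-fold higher, 3 were lower and 17 were within 1.5-fold, with a median of 0.049. Over all genes 12.8% were higher and 13.2% lower by that much. Bmpr2, a type II receptor for bone morphogenetic proteins, had 4.66 FPKM and 9.36 FPKM, a log2 fold change of 0.97 (0.84 to 1.12) that was 0.48 with the length trend removed. Tmprss6, the hepatocyte protease that restrains hepcidin, had 5.55 FPKM and 2.69 FPKM (−1.05), and Il6, the cytokine that induces it in inflammation, had 205 FPKM and 135 FPKM (−0.63, and −0.43 under an equal FPKM sum). Hjv, the hemojuvelin co-receptor, is listed as Hfe2 and had 1.29 FPKM and 0.738 FPKM (−0.75), with only about 23 and 15 reads and an interval from −1.90 to 0.14 that includes no change.

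Heme synthesis held changes in both directions. Of 12 synthesis genes past the filter, 1 was at least 1.5-fold higher and 3 were lower, where 26.0% of all genes passed 1.5-fold in either direction, and the median was −0.23. Alas1, the rate-limiting enzyme outside red cells, had 143 FPKM and 135 FPKM (−0.11). Urod, uroporphyrinogen decarboxylase, had 16.1 FPKM and 27.9 FPKM (0.76), whereas Alad, which makes porphobilinogen, had 17.7 FPKM and 9.93 FPKM (−0.85) and the porphyrin transporter Abcb6 had 7.21 FPKM and 3.15 FPKM (−1.20). The 3 genes of heme breakdown outside the set were all within 1.5-fold, with log2 fold changes from −0.58 to −0.26. Blvrb, a biliverdin reductase, had 163 FPKM and 118 FPKM (−0.49). Its value was −0.19 with the length trend removed and −0.29 under an equal FPKM sum. Of 6 regulators of heme and ferritin genes, 0 passed 1.5-fold in either direction, and Nfe2l2, encoding NRF2, which activates Hmox1 and the ferritin genes, had 263 FPKM and 257 FPKM (−0.058). Red cell transcripts were low, with Hba-a1 at 43.0 FPKM and 37.5 FPKM, Hba-a2 at 23.9 FPKM and 25.9 FPKM and Hbb-bs at 71.5 FPKM and 82.9 FPKM, and Rhag listed at 0 in both libraries.

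In the mitochondrial group, 11 of 12 genes were below 0, with a median of −0.39. At least 1.5-fold lower were 2 of the 12, beside 13.2% of all genes. Glrx5, which passes on iron-sulfur clusters, had 38.8 FPKM and 25.6 FPKM (−0.63, and −0.42 under an equal FPKM sum), and Lyrm4, a partner of the cysteine desulfurase, had 2.39 FPKM and 1.27 FPKM (−0.88) from about 44 and 27 reads. Hspa9, the mitochondrial chaperone of the pathway, had 105 FPKM and 107 FPKM (−0.0028).

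**Figure D4:**
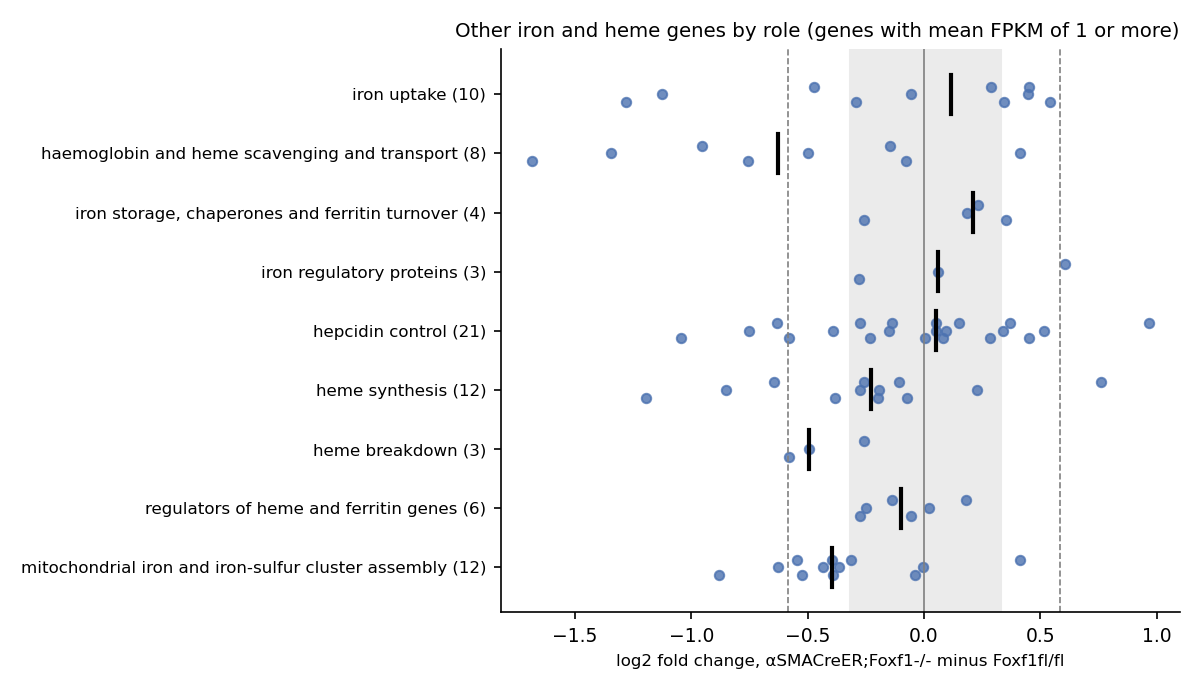
Each point is 1 of the 79 other iron and heme genes with a mean level of at least 1 FPKM, placed by its log2 fold change (αSMACreER;Foxf1-/- minus Foxf1fl/fl) in a row for its role, with the number of genes in parentheses. Black bars are medians, the grey band is the interquartile range of all genes and dashed lines mark 1.5-fold. The heme scavenging row reaches furthest to the left, to −1.69, and Bmpr2 in the hepcidin control row furthest to the right, at 0.97.

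All of these values were also set against transcript length. Across the 12670 genes, which are not independent replicates, fold change and the longest annotated transcript were related with a Spearman's rho of 0.45. Genes in the length group of Ftl1, 553 to 982 bases, had a median of −0.41 on the log2 scale, and those in the group of Tfrc and Cp, 4520 to 4928 bases, one of 0.20. Ftl1 lay close to the median of its group, while Tfrc lay 1.38 above and Cp fell by 0.88 on the log2 scale relative to the same group. Hamp, at −1.08, lay between the quartiles of its length group, 73 to 552 bases, which were −1.59 and 0.73.

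**Figure D5:**
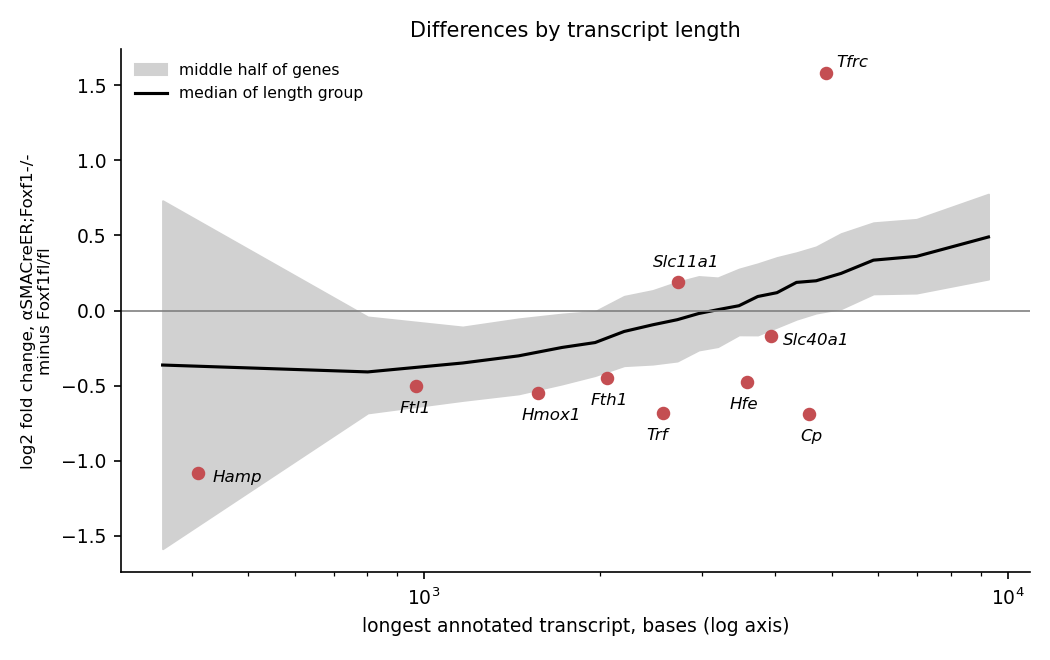
The horizontal axis gives the longest annotated transcript of a gene in bases on a log scale, the vertical axis the log2 fold change (αSMACreER;Foxf1-/- minus Foxf1fl/fl). The black line joins the medians of 20 length groups of all genes, the grey band is their interquartile range, and red points are the 10 genes. Ftl1 lies near the line, Tfrc far above it, and Trf, Hfe and Cp below the band, with Slc40a1 and Fth1 just under its lower edge. Hamp lies inside the band, which is wide among the shortest transcripts.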

How the data were processed

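RNA was pooled by genotype into TruSeq libraries and sequenced as single-end reads of 75 bases, about 10 M per library per the labels. The authors aligned the reads with the Tophat/Cufflinks pipeline (mm10 in the submitters' processing notes, versions not given) and deposited FPKM per Ensembl gene. The DESeq normalisation that the study describes was for read counts, which were not analysed here. FPKM are not counts, so no count model was run.

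Of 38320 entries, 36490 matched a GENCODE M21 (GRCm38) symbol, and 36402 overlapped that gene. The entry with the highest mean was kept per symbol, and 3 entries with a status other than OK were left out. αSMACreER;Foxf1-/- values were divided by 1.02, the median ratio of 11871 genes at 1 FPKM or more in both libraries, and 0.1 was added before log2. The 1.5-fold threshold follows the study. Mapped reads were estimated from the spacing of low values of single-transcript genes as 9732180 (Foxf1fl/fl) and 11301528 (αSMACreER;Foxf1-/-). These are rough estimates: 46.1% and 48.5% of low values fell no further than 0.1 from a whole number of reads. Counting intervals are exact (Clopper-Pearson, 95%) on reads placed on the longest transcript, with fragments of 200 bases assumed, and were tested on simulated data.

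The genes, lists and tests were chosen with earlier results of these data known. Named from the wider list were the most abundant gene of each role and up to 3 past 1.5-fold with the largest changes, and from marker lists the first 3 genes, while Lrat, Rhag, Col1a1, Col3a1 and Dcn were named after their values were seen. With 2 libraries each gene has a single ratio, so no genes were named for a pattern like that of another. Abcb10 and Ahsp were not analysed here. Alternatives changed scaling, pseudocount, filter, fold threshold, repeated entries and length, and those for ferritin copies and median transcript length were chosen after seeing the data. Scripts ran in Python 3.11.15 with scipy 1.17.1, pandas 2.3.3, matplotlib 3.10.9 and numpy 2.4.6.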

Additional observations from a re-analysis of the deposited data

How the results depend on the processing

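No paired analysis was possible because only 1 pooled library stood for either genotype, and no library could be left out. With an equal FPKM sum 1 gene of the set was at least 1.5-fold lower against 3, and the median of the set was −0.29 against −0.49. In the wider list 10 genes were then higher against 3 and 9 lower against 14, with a median of 0.0092 against −0.19. The same scaling took the median of all genes from 0.0049 to 0.21 and split calls over all genes into 2848 higher and 1122 lower, against 1616 and 1675. At a 2-fold threshold 1 gene of the set was lower. Of the 79 genes of the wider list, 0 were then higher and 6 lower, beside 4.32% and 6.21% of all genes. A minimum mean of 5 FPKM left 9 genes of the wider list lower, since fewer genes were tested. Of all genes at that minimum, 11.2% were lower. With the length trend removed the median of the set was −0.27. An equal FPKM sum took 9 of the 10 genes outside their counting intervals, as did removal of the length trend for 9, upper-quartile scaling for 4, the values as deposited for 2, and the other pseudocounts, filters and summed entries for 0. Among the genes named by rule, none past 1.5-fold changed sign in these settings. Of those within 1.5-fold, Slc40a1, Alas1, Fbxl5, Nfe2l2, Hspa9, Adgre1, Hba-a1 and the endothelial markers Stab2 and Pecam1 changed sign in at least 1. Cd163, Aco1 and the other genes named outside the rule were not run under the alternatives. Adding ferritin copies moved neither Fth1 nor Ftl1 past its interval. Depth left the widest counting intervals for Hamp and Tfrc with reads placed on the longest transcript, and for Tfrc and Slc40a1 with the median length.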

Other observations

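In the wider list, 2 further genes held a stem-loop with the loop CAGTGN in an annotated UTR. Alas2, the red cell enzyme that starts heme synthesis and whose mRNA is known to carry an iron-responsive element, held it in the 5′ UTR and had 1.07 FPKM in Foxf1fl/fl and 0.7003 FPKM in αSMACreER;Foxf1-/- cells, a mean below the minimum of 1 FPKM. Bola3, an iron-sulfur cluster assembly factor, held it in the 3′ UTR of at least 1 annotated transcript and had 24.9 FPKM and 17.6 FPKM, a log2 fold change of −0.52. The Bola3 match is a match of letters and pairs, and binding was not tested. These genes were named after their values were seen.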
